A study of Mus musculus with 29 samples.

Results

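The 8 genes described here, Cdkn1a, Ccng1, Psrc1, Btg2, Plk2, Zmat3, Phlda3 and Gadd45a, are growth arrest and checkpoint genes that the transcription factor p53 is known to induce. They were taken by symbol from the 23366 genes counted in the deposited files, and each of the 8 passed the filter on low counts in each fit. p53 is held at a low level by the ubiquitin ligase Mdm2 and accumulates after DNA damage or other stress. It then binds a response element made of paired decamers and switches on genes that stop the cell cycle and genes that lead to cell death. In blood stem cells p53 is known to keep cells quiescent and to limit their number.

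The RNA came from marrow cells of male and female C57BL/6 mice aged 8 to 12 weeks. Lineage-negative cells with cKit and Sca1 on their surface, which hold the stem cells and early progenitors of blood, were parted by CD150, a surface receptor that marks the fraction richest in long-term stem cells. The CD150-negative population had 3 libraries of wild type, 3 of Puma-/-, 3 of Mysm1-/-Puma+/- and 3 of Mysm1-/-Puma-/-. The CD150-positive population had 4 libraries of wild type, 2 of Puma-/-, 4 of Mysm1-/-Puma+/- and 7 of Mysm1-/-Puma-/-, which makes 29 libraries in all. Mysm1 is a histone H2A deubiquitinase needed for blood formation, and Puma, the product of Bbc3, is a p53-induced protein that triggers cell death. The submitters used Mysm1-/-Puma+/- in place of Mysm1-/-, so this group differs from wild type in both genes. It is called Mysm1-null here, Mysm1-/-Puma-/- is called double-null and Puma-/- is called Puma-null. Libraries are named by the letter and number of their labels: D and W are wild type, C Puma-null, A Mysm1-null, and B and P double-null. Whether each library is a different mouse is not in the labels. A p-value here therefore reflects only how far these libraries spread, and that spread may be technical. In bulk RNA of this kind, fewer cells of a type and less RNA per cell cannot be told apart.

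Depth ran from 12304713 to 54339749 counts per library. In CD150-negative libraries it was 28066870 or more. In CD150-positive cells it was 12304713 to 22570971 in wild type and 21302832 to 35034318 in Mysm1-null libraries, so the Mysm1-null libraries were mostly the deeper ones there. Levels are given as CPM, the count per gene scaled to a common library size. Slamf1, which encodes CD150, was at 0.218 to 2.30 CPM in CD150-negative libraries and at 11 to 30.4 CPM in CD150-positive libraries. Mysm1 was at 66.4 to 122 CPM in Mysm1-deleted libraries and at 85.3 to 132 CPM in the others, and Bbc3 was at 2.29 to 6.00 CPM in Puma-null and 2.85 to 7.78 CPM in wild-type libraries. The parts that were deleted are not given in the sources used here, so these levels check no genotype label. Of the marker lists of other cells, the summed B-lineage list was 350 to 1228 CPM in CD150-negative Mysm1-null and 74.0 to 151 CPM in CD150-negative wild type. That sum was mostly Igj, the antibody joining chain, at 335 to 1201 against 58.6 to 130 CPM. Igj was the only one of the 9 genes called by edgeR there, and 4 of the 9 had a positive log2 fold change. The T-lineage sum was lower in Mysm1-null than in wild-type libraries, at 24.2 to 36.1 against 46.1 to 62.9 CPM in CD150-negative and 23.5 to 29.9 against 31.9 to 67.1 CPM in CD150-positive cells. The megakaryocyte sum was 66.4 to 90.4 against 55.1 to 62.3 CPM in CD150-negative cells, and in CD150-positive cells, where the ranges overlapped, 519 to 1296 against 305 to 542 CPM. Of its 8 genes, 7 had a positive log2 fold change in each population, with medians of 0.73 and 0.95. By edgeR 6 and 5 of the 8 had an unadjusted p under 0.05, and none was called higher. The part of these differences in the results below was not tested.

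The reference sequence around the 8 genes was searched for p53 response elements. Windows reached 5 kb to each side of the start of a protein-coding transcript of each gene and were searched for the p53 consensus, 20 bases in paired decamers without a spacer. The consensus is its own reverse complement, so the search covers both strands. The C and G of each decamer core had to be present, and up to 2 other bases could differ. A match with at most 1 mismatch was found in 4 of the 8 genes, against 1.71% of 22359 protein-coding genes. With at most 2 mismatches the count was 5 of 8, against 9.92% of all genes. The best match of each is shown because p53 is known to act through elements of this form. For Ccng1 and Plk2 another match had as few mismatches as the one shown. Each is given in the direction of its gene, 5′ to 3′, with the 4-base core of each decamer in capitals, from build NCBIM37 (mm9), the build of the files.
Cdkn1a: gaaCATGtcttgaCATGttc
Ccng1: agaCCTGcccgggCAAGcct
Psrc1: gggCATGttgaggCATGccc
Zmat3: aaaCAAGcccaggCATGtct
Plk2: caaCATGcccgggCTTGcat

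The Zmat3 match had 0 mismatches and lies in an intron on the minus strand at chr3:32263253-32263272, 1328 bases after the transcript start. Of all genes, 0.183% had such a match. The Cdkn1a match, with 1 mismatch, lies upstream at chr17:29227873-29227892 on the plus strand, just before the gene's annotated span, which starts at 29227924. The Ccng1 match, with 1 mismatch, lies 170 bases upstream of the start on the minus strand at chr11:40568964-40568983. A second Ccng1 match with 1 mismatch lies in an intron at chr11:40568438-40568457. The Psrc1 match, with 1 mismatch, lies in an intron at chr3:108187574-108187593 on the plus strand, 817 bases after the start. The Plk2 match had 2 mismatches and lies upstream at chr13:111183090-111183109 on the plus strand. Btg2 at chr1:135971747-135975697, Phlda3 at chr1:137662696-137665713 and Gadd45a at chr6:66985090-66987451 had no match with 2 or fewer mismatches in this window. A match is a run of letters and not evidence of binding. Gadd45a overlaps an antisense gene, E230016M11Rik, so without a known strand setting its reads cannot be told apart from those of its partner. No other of the 8 overlaps an annotated gene.

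Without Mysm1, 5 of the 8 genes were higher in CD150-negative cells than in wild type: Cdkn1a, Ccng1, Psrc1, Plk2 and Phlda3. In CD150-positive cells 5 were higher too: Cdkn1a, Ccng1, Psrc1, Zmat3 and Phlda3. The other 3 were not called. A gene was called changed at an edgeR adjusted p under 0.05 over all genes tested. By that rule 0.638% of 21168 genes were higher in the CD150-negative comparison and 0.372% of 20944 genes in the CD150-positive comparison. The median log2 fold change of the 8 genes was 2.07 in CD150-negative cells, where that of all genes tested was -0.05. In CD150-positive cells it was 1.58, again with -0.05 for all genes.

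**Figure D1:**
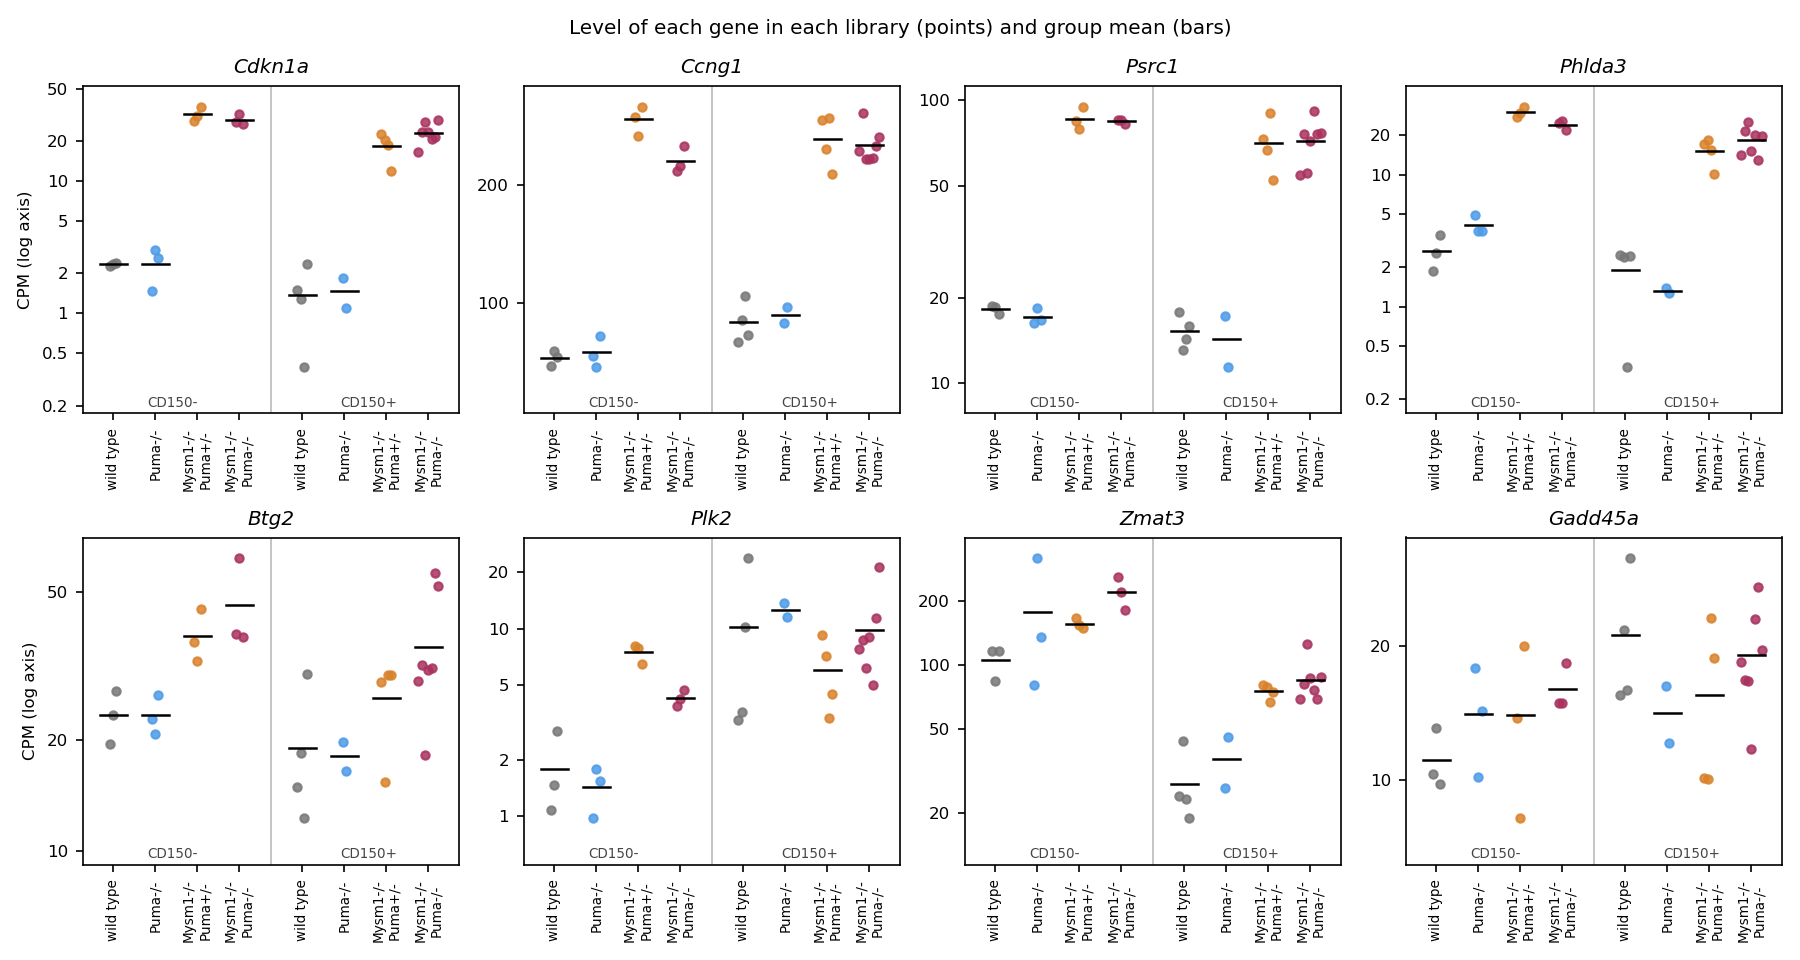
Level of each of the 8 genes, in TMM-scaled CPM on a log axis, in each of the 29 libraries (points) with the group mean (bars), CD150-negative groups on the left of each panel. Cdkn1a, Ccng1, Psrc1 and Phlda3 are separated by Mysm1 genotype in both populations, Btg2 and Plk2 in CD150-negative cells, Zmat3 in CD150-positive cells, and Gadd45a in neither.

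Cdkn1a encodes p21, the inhibitor of cyclin-dependent kinases through which p53 is best known to stop cells before DNA replication. Its CD150-negative wild-type libraries were at 2.30, 2.35 and 2.40 CPM and the Puma-null libraries at 1.46, 3.01 and 2.60 CPM. The Mysm1-null libraries were at 28.7, 31.3 and 36.5 CPM and the double-null libraries at 27.9, 32.1 and 26.9 CPM. Every library without Mysm1 lay above every library with it. Mysm1-null exceeded wild type by 3.80 ± 0.24 (SE) on the log2 scale, a 13.9-fold rise, with an edgeR adjusted p of 4.07e-08. In CD150-positive cells wild type was at 1.5, 1.28, 0.395 and 2.34 CPM and Puma-null at 1.83 and 1.10 CPM. Mysm1-null was at 22.8, 20.5, 18.7 and 11.8 CPM, and the 7 double-null libraries ran from 16.7 through a median of 23.4 to 28.7 CPM. These groups did not overlap by Mysm1 genotype either. Here the rise over wild type was 3.81 ± 0.37 on the log2 scale, with an edgeR adjusted p of 5.33e-06. The lowest wild-type value, 0.395 CPM in library D3-4, rests on 9 counts.

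Ccng1 encodes cyclin G1, which recruits phosphatase 2A to Mdm2. Per kilobase of transcript it had the highest mean of the 8 genes in 7 of the 8 groups, and Zmat3 was above it in CD150-negative Puma-null cells. CD150-negative wild type was at 69.5, 75.8 and 73.2 CPM and Puma-null at 73.6, 69.1 and 82.5 CPM. Mysm1-null was at 298, 266 and 315 CPM and double-null at 217, 223 and 251 CPM. All 6 libraries without Mysm1 were above all 6 with it, and the double-null libraries were all below the Mysm1-null libraries. Over wild type the Mysm1-null log2 fold change was 2.04 ± 0.14, with an edgeR adjusted p of 6.75e-08. The CD150-positive wild-type libraries were at 79.9, 90.5, 105 and 83.0 CPM, and Mysm1-null at 292, 247, 295 and 213 CPM. Puma-null was at 89.3 and 97.8 CPM, and double-null ran from 233 through a median of 243 to 305 CPM. The groups with and without Mysm1 did not overlap. Ccng1 was higher in Mysm1-null by a log2 fold change of 1.62 ± 0.16, with an edgeR adjusted p of 6.84e-06.

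Psrc1 encodes a microtubule-associated protein of the spindle. Its values varied little within the CD150-negative groups. Wild type was at 18.8, 18.5 and 17.5 CPM and Puma-null at 16.3, 18.5 and 16.7 CPM. Mysm1-null was at 84.9, 78.9 and 95 CPM and double-null at 85.6, 85.3 and 82.3 CPM. The 2 ranges with Mysm1 overlapped each other, as did the 2 ranges without it, with a gap between them. Psrc1 was higher in Mysm1-null than in wild type by 2.27 ± 0.13 on the log2 scale, with an edgeR adjusted p of 2.32e-08. Wild type in CD150-positive cells was at 17.9, 13.1, 14.4 and 16 CPM and Puma-null at 17.3 and 11.4 CPM. Mysm1-null was at 72.8, 67.0, 90.1 and 52.4 CPM, and double-null ran from 54.6 through a median of 76.1 to 91.5 CPM. Again no library with Mysm1 reached the lowest one without it. Its log2 fold change was 2.27 ± 0.21, with an edgeR adjusted p of 4.57e-06.

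Phlda3 encodes a pleckstrin homology domain protein that restrains Akt signalling. In CD150-negative cells wild type was at 1.87, 2.56 and 3.47 CPM, and Mysm1-null at 27.1, 29.2 and 32.6 CPM. Puma-null was at 4.93, 3.73 and 3.74 CPM and double-null at 24.6, 25.4 and 21.6 CPM. The 4 groups did not overlap in any pair. Phlda3 rose by 3.52 ± 0.23 on the log2 scale, with an edgeR adjusted p of 5.14e-08. Among CD150-positive libraries wild type was at 2.44, 2.39, 0.351 and 2.43 CPM, and Mysm1-null at 17.2, 18.3, 15.3 and 10.0 CPM. Puma-null was at 1.37 and 1.27 CPM, and double-null ran from 13 through a median of 19.6 to 24.9 CPM. The groups with and without Mysm1 did not overlap. The rise was 3.09 ± 0.39 on the log2 scale, with an edgeR adjusted p of 0.000151. The wild-type value of 0.351 CPM, again in library D3-4, rests on 8 counts.

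Those 4 genes were called higher in both Mysm1 comparisons in all 15 alternatives run for the CD150-negative and all 18 run for the CD150-positive cells. Over these alternatives Cdkn1a ranged from 3.35 to 3.88 in CD150-negative and from 3.08 to 4.24 in CD150-positive cells, on the log2 scale. The 4 remaining genes are described next.

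Plk2 encodes a polo-like kinase of G1 and the centrosome cycle. In CD150-negative cells wild type was at 1.08, 1.46 and 2.84 CPM and Puma-null at 0.976, 1.79 and 1.53 CPM. Mysm1-null was at 8.08, 7.84 and 6.46 CPM and double-null at 3.87, 4.19 and 4.71 CPM. All libraries without Mysm1 were above those with it, and the double-null libraries lay between. Plk2 was higher in Mysm1-null by a log2 fold change of 2.09 ± 0.38, with an edgeR adjusted p of 0.0083. This call was lost without wild-type library D2 (log2 1.84, adjusted p 0.0618) or D3 (log2 1.95, adjusted p 0.0654). In CD150-positive cells wild type was at 3.27, 3.59, 10.1 and 23.7 CPM and Puma-null at 13.7 and 11.5 CPM. Mysm1-null was at 9.23, 7.12, 3.36 and 4.45 CPM, and double-null ran from 4.99 through a median of 8.70 to 21.2 CPM. These groups overlapped, and the log2 fold change of Mysm1-null over wild type was -0.69 ± 0.52, with an edgeR adjusted p of 0.68. It was 0.14 without the W1 and P libraries, so no direction can be read from it. The Mysm1 effect on Plk2 was lower in CD150-positive than in CD150-negative cells by a log2 difference of -2.81 ± 0.74. That difference had an unadjusted edgeR p of 0.000687 and an adjusted p of 0.73, and so failed the correction. Over 23 alternatives it ran from -3.30 to -1.91 and was called in none.

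Zmat3, also known as Wig1, encodes a zinc finger protein that binds RNA. It was called in CD150-positive and not in CD150-negative cells. Wild-type CD150-positive libraries were at 24.2, 43.6, 23.3 and 19 CPM and Puma-null at 26.3 and 45.6 CPM. Mysm1-null was at 80.3, 79.1, 66.9 and 74.9 CPM, and double-null ran from 69.3 through a median of 81.2 to 125 CPM. No library with Mysm1 reached those without it. Zmat3 was higher in Mysm1-null by a log2 fold change of 1.54 ± 0.22, with an edgeR adjusted p of 0.000514. In CD150-negative cells wild type was at 117, 84.1 and 117 CPM and Mysm1-null at 166, 154 and 149 CPM. Puma-null was at 80.6, 319 and 135 CPM and double-null at 259, 221 and 181 CPM. The Mysm1-null libraries were above wild type, but the Puma-null library C3 was the highest of all. Mysm1-null differed from wild type by 0.60 ± 0.31 on the log2 scale, with an edgeR adjusted p of 0.587. The difference of the Mysm1 effect between the populations was 0.90 ± 0.43, with an unadjusted edgeR p of 0.0436 and an adjusted p of 1.

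Btg2 encodes an antiproliferative protein that recruits the machinery that removes messenger RNA tails. In CD150-negative cells wild type was at 19.4, 23.3 and 27.0 CPM and Puma-null at 22.7, 20.7 and 26.3 CPM. Mysm1-null was at 36.6, 32.5 and 44.9 CPM and double-null at 38.4, 61.5 and 37.8 CPM. The libraries without Mysm1 were all above those with it. Btg2 differed between Mysm1-null and wild type by 0.74 ± 0.21 on the log2 scale, with an edgeR adjusted p of 0.134, and DESeq2 (adjusted p 0.0357) and voom (adjusted p 0.045) called it. The CD150-positive wild type was at 14.9, 18.4, 12.3 and 30.1 CPM and Mysm1-null at 28.6, 15.3, 29.8 and 29.8 CPM. Puma-null was at 19.7 and 16.4 CPM, and double-null ran from 18.1 through a median of 31.2 to 56.1 CPM. The groups overlapped through W1 on the high side and A2 on the low side. Their log2 difference was 0.53 ± 0.32, with an edgeR adjusted p of 0.642.

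Gadd45a encodes a stress sensor that binds PCNA and the kinase Cdk1. By edgeR it was not called in any of the 14 comparisons made. In CD150-negative cells wild type was at 10.3, 13.1 and 9.80 CPM and Mysm1-null at 13.8, 8.22 and 20.1 CPM. Puma-null was at 17.9, 10.1 and 14.3 CPM and double-null at 14.9, 14.9 and 18.3 CPM. In CD150-positive cells wild type was at 15.5, 21.8, 15.9 and 31.5 CPM and Mysm1-null at 10.1, 10.1, 23.2 and 18.8 CPM. The groups overlapped in both populations. The log2 fold change of Mysm1-null over wild type was 0.36 ± 0.28 in CD150-negative and -0.38 ± 0.30 in CD150-positive cells, with edgeR adjusted p-values of 0.765 and 0.693.

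Counted over both Puma backgrounds, every library without Mysm1 was above every library with it for 6 of the 8 genes in CD150-negative cells. Of all genes tested, 1.33% were separated in this direction, with 6 libraries against 6. In CD150-positive cells the count was 5 of 8, against 0.444% of all genes, with 11 libraries against 6. The plot of levels by library shows these gaps.

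The same question was asked on the Puma-null background, where double-null was compared with Puma-null. In CD150-negative cells Cdkn1a, Ccng1, Psrc1, Btg2 and Phlda3 were higher, 5 of 8, where 0.411% of all genes were higher. Cdkn1a was higher by 3.59 ± 0.23 on the log2 scale, Ccng1 by 1.58 ± 0.13, Psrc1 by 2.26 ± 0.13 and Phlda3 by 2.48 ± 0.22. The edgeR adjusted p was 8.94e-08 for Cdkn1a and 4.4e-06 or less for the other 3 genes. Btg2, at 0.95 ± 0.21, had an edgeR adjusted p of 0.0259, and its call was lost without library B3 (0.65, adjusted p 0.193). It was also lost without any of the Puma-null libraries, with adjusted p-values of 0.112 without C2, 0.136 without C3 and 0.0631 without C5. Plk2 was at 1.54 ± 0.37 with an edgeR adjusted p of 0.0516, and all its double-null libraries lay above the Puma-null ones. It was called by DESeq2 (adjusted p 0.00507), by limma-trend (0.0448) and with the receptor-gene covariate described below (0.0273). Zmat3 was at 0.27 ± 0.31 with an adjusted p of 0.878, and without library C3 at 0.95 with an adjusted p of 0.0278.

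In CD150-positive cells the comparison rests on 2 Puma-null libraries, C1-4 and C2-5. Cdkn1a, Ccng1, Psrc1, Zmat3 and Phlda3 were higher, 5 of 8, where 0.0907% of all genes were higher. On the log2 scale Cdkn1a was higher by 4.00 ± 0.49, Ccng1 by 1.5 ± 0.20, Psrc1 by 2.37 ± 0.27 and Phlda3 by 3.84 ± 0.54, with edgeR adjusted p-values of 0.000194, 0.000595, 0.000114 and 0.0014. Zmat3 was at 1.32 ± 0.26 with an edgeR adjusted p of 0.0469, and that call was lost in 12 of 18 alternatives (adjusted p 0.000738 to 0.442). With either Puma-null library left out the count was 2, Cdkn1a and Psrc1, and the adjusted p-values of Ccng1 and Phlda3 lay between 0.0614 and 0.139. The remaining Puma-null library was then assumed to vary as the other groups do. Without the libraries of high receptor-gene reads described below, which leaves out C2-5 too, Cdkn1a (adjusted p 0.0555) and Phlda3 (0.197) were no longer called.

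**Figure D2:**
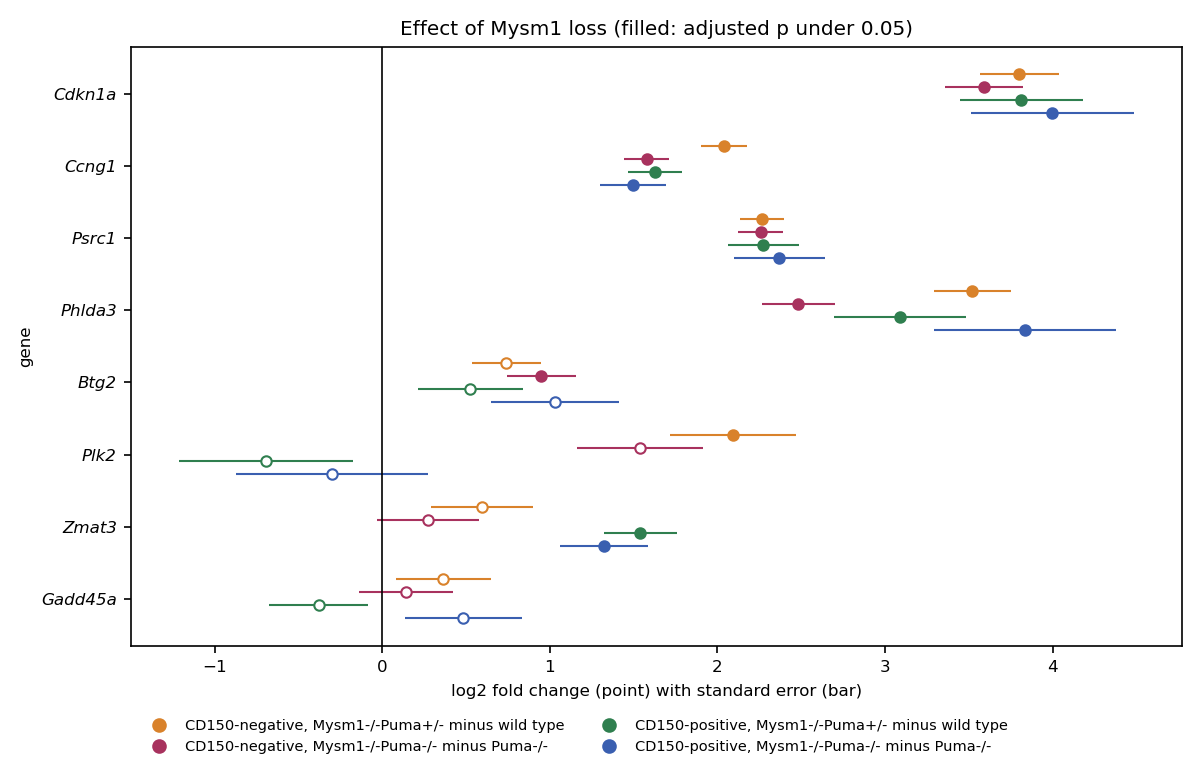
Log2 fold change (points) and its standard error (bars) of each gene for Mysm1-null, which is Puma+/-, against wild type and for double-null against Puma-null. Both are shown in the 2 populations, with filled points for an adjusted p under 0.05. Cdkn1a, Ccng1, Psrc1 and Phlda3 are filled in all 4 comparisons, while Plk2 runs from 2.09 in CD150-negative Mysm1-null cells to -0.69 in CD150-positive ones.

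None of the 8 genes was called by edgeR for loss of Puma in any of the 4 comparisons. Without Mysm1 these set Puma-/- against Puma+/-, and with Mysm1 they set Puma-/- against wild type, so they differ in how much Puma was lost. In CD150-negative cells without Mysm1, 1.24% of all genes were called, 222 of them lower and 41 higher. Ccng1 was at a log2 fold change of -0.43 ± 0.13, with an edgeR adjusted p of 0.0965, and was called by DESeq2 (adjusted p 0.0155) and voom (adjusted p 0.0373). Plk2 was at -0.89 ± 0.36, with an edgeR adjusted p of 0.215 and a voom adjusted p of 0.03. Both had an unadjusted edgeR p under 0.05, and in both all double-null libraries lay below all Mysm1-null libraries. Phlda3 was separated in the same direction, and Zmat3 (0.40 ± 0.31) in the other. The share of all genes so separated is not given here. Cdkn1a was at -0.23 ± 0.21, Psrc1 at -0.12 ± 0.13 and Phlda3 at -0.40 ± 0.20, with edgeR adjusted p-values of 0.626, 0.711 and 0.331.

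In CD150-positive cells without Mysm1, edgeR called 0 of the 8 genes and 0% of all genes, and 0 of the 8 had an unadjusted p under 0.05. Cdkn1a was at 0.27 ± 0.28, Ccng1 at -0.11 ± 0.14, Psrc1 at -0.03 ± 0.18 and Phlda3 at 0.21 ± 0.31 on the log2 scale. DESeq2, voom and limma-trend also called 0 of the 8. The loss of Puma alone, Puma-null against wild type, gave 0 calls among all genes in both populations by edgeR, 0% of those tested, and 0 of the 8 by the other 3 tools. In CD150-negative cells 2 of the 8 had an unadjusted edgeR p under 0.05, Phlda3 (log2 0.64 ± 0.22, p 0.00903) and Zmat3 (0.73 ± 0.31, p 0.0302), and in CD150-positive cells 0 had. Without library C3, Zmat3 in Puma-null was at 0.03 against wild type.

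**Figure D3:**
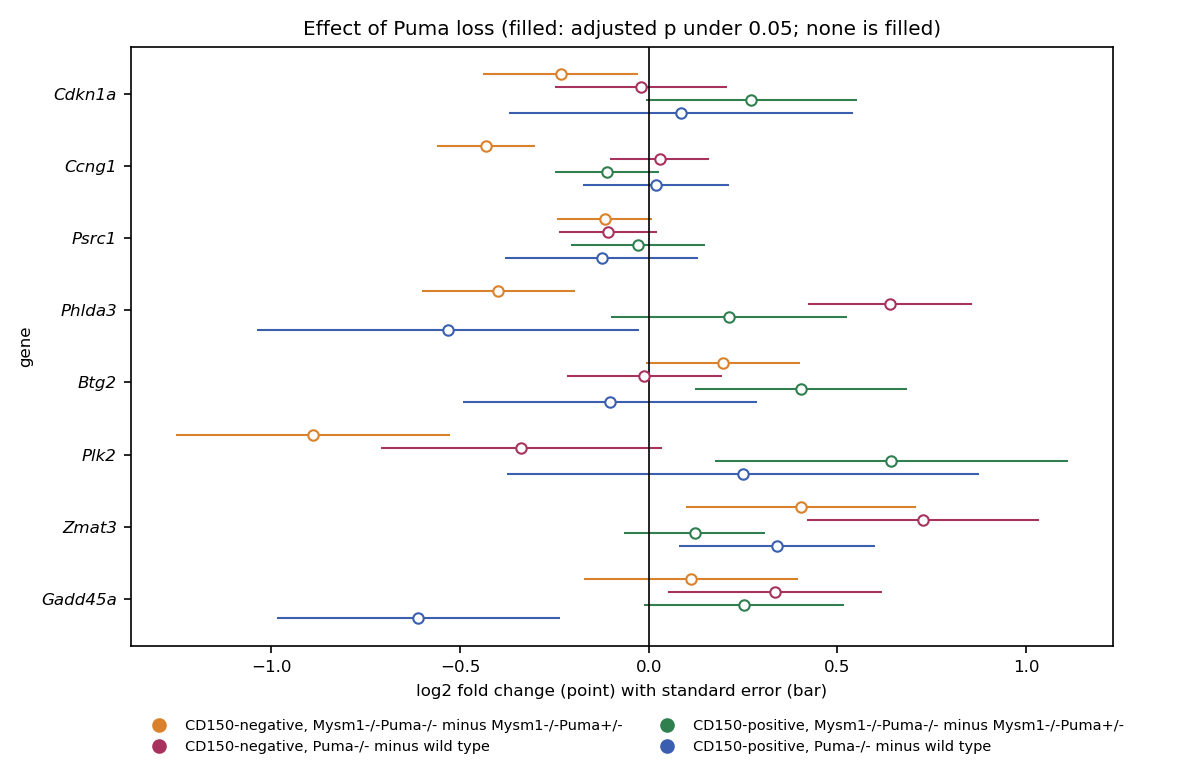
Log2 fold change (points) and its standard error (bars) of each gene for loss of Puma in the 2 populations. Without Mysm1 this is double-null against Mysm1-null, which is Puma+/-, and with Mysm1 it is Puma-null against wild type. No point is filled, so no adjusted p is under 0.05, and the lowest value is that of Plk2 in CD150-negative cells without Mysm1, at -0.89.

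Whether the effect of Mysm1 differed with the Puma background was tested as a difference of effects. The effect of double-null over Puma-null was set against that of Mysm1-null over wild type. Mysm1-null is Puma+/- and wild type is not, so this difference also holds any effect of Puma+/-, which cannot be told apart from it. None of the 8 was called in either population, where 0.0142% of all genes were called in CD150-negative and 0% in CD150-positive cells. The widest difference in CD150-negative cells was that of Phlda3, at -1.04 ± 0.30, with an unadjusted edgeR p of 0.00274 and an adjusted p of 0.617. Ccng1 was at -0.46 ± 0.19, with an unadjusted p of 0.0234 and an adjusted p of 0.65. For the difference between the populations 0.00916% of all genes were called and none of the 8. Besides Plk2 and Zmat3, Ccng1 had an unadjusted edgeR p of 0.0163 there, at -0.46 ± 0.18, with an adjusted p of 1.

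Between the populations Plk2 and Zmat3 were called. In wild type, Plk2 was higher in CD150-positive than in CD150-negative cells by a log2 fold change of 2.51 ± 0.56, with an edgeR adjusted p of 0.00368, where 3.09% of all genes were higher. Without library W1 and the P libraries it was 1.65, with an adjusted p of 0.0158. Zmat3 was lower by a log2 value of -1.95 ± 0.30, with an edgeR adjusted p of 5.42e-05, where 4.05% of all genes were lower. With a block for libraries of the same name neither call held (Plk2 1.73, adjusted p 0.187, and Zmat3 -1.42, adjusted p 0.066). Of the wild-type libraries only D2 has the same name in both populations, so the blocked values rest on that pair. Gadd45a was at 0.94 ± 0.32 with an edgeR adjusted p of 0.0785, and its ranges did not overlap. DESeq2 (0.031) and the receptor covariate (0.0103) called it, and without library W1 and the P libraries it was at 0.61 with an adjusted p of 0.302. Cdkn1a was at -0.77 ± 0.33 with an adjusted p of 0.2, and without library W1 at -1.20 with an adjusted p of 0.0295. Zmat3 was lower in Mysm1-null CD150-positive cells too, at -1.05 ± 0.30 with an adjusted p of 0.0281, and 3.24% of all genes were lower. That call was lost without any of the CD150-negative Mysm1-null libraries or without CD150-positive A3, with adjusted p-values of 0.0577 to 0.0944. In double-null cells Zmat3 was at -1.37 ± 0.26 with an adjusted p of 0.00035, and 7.14% of all genes were lower. By the main edgeR fit the other 7 genes were not called in these last 2 comparisons. Btg2 was called lower in double-null CD150-positive cells without the P and W libraries (-0.74, edgeR adjusted p 0.0411) and with the block (-0.81, 0.012). With the receptor covariate edgeR called Phlda3 lower in Mysm1-null (-0.97, adjusted p 0.0336) and Psrc1 lower in double-null CD150-positive cells (-0.35, 0.05 after rounding). DESeq2, voom and limma-trend also called Cdkn1a and Phlda3 lower in Mysm1-null and Plk2 higher in double-null CD150-positive cells, and voom called Cdkn1a and Phlda3 lower in double-null cells.

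The order of the groups by mean level summarises the patterns. For Cdkn1a, Ccng1, Psrc1 and Phlda3 the 4 groups with Mysm1 came first and the 4 without it last, and no group overlapped across that divide. Next to each other within the 4 high groups, ranges of Cdkn1a, Ccng1 and Psrc1 overlapped at every step. Mean Cdkn1a in those groups went from 18.5 ± 4.71 (SD, n = 4) CPM in CD150-positive Mysm1-null, through 23.3 ± 4.17 (n = 7) in CD150-positive double-null and 29 ± 2.77 (n = 3) in CD150-negative double-null, to 32.2 ± 3.97 (n = 3) in CD150-negative Mysm1-null. For Zmat3 the order followed the population first: the CD150-positive groups held the 4 lowest means, from 27.5 ± 11 CPM (SD, n = 4) in wild type to 85.2 ± 19.2 (n = 7) in double-null. For Plk2 the lowest means were those of the CD150-negative groups with Mysm1, 1.43 ± 0.415 CPM (SD, n = 3) in Puma-null and 1.79 ± 0.931 (n = 3) in wild type. The highest were those of the CD150-positive groups with Mysm1, 12.6 ± 1.53 CPM (n = 2) in Puma-null and 10.2 ± 9.56 (n = 4) in wild type. That wild-type mean was raised by library W1 at 23.7 CPM. The wild-type median was 6.86 CPM, below those of CD150-positive double-null (8.70) and CD150-negative Mysm1-null (7.84). For Btg2 and Gadd45a each group overlapped its neighbour in the order.

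Levels of different genes were compared per kilobase of the deposited gene length. In CD150-negative wild type Ccng1 led with 20.9 CPM per kilobase, followed by Zmat3 with 13.6, Gadd45a with 9.05 and Btg2 with 7.54. Psrc1 was at 5.25, Phlda3 at 1.79, Plk2 at 0.640 and Cdkn1a, the last, at 0.611 CPM per kilobase. In Mysm1-null cells of the same population Ccng1 stood at 84.1, Psrc1 at 24.8, Phlda3 at 20.2 and Zmat3 at 20.1 CPM per kilobase. Cdkn1a reached 8.36 CPM per kilobase and was below Btg2 with 12.3 and Gadd45a with 11.5. The gene with the widest fold change in this comparison was thus among the less abundant of the 8.

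Across the 29 libraries Cdkn1a, Psrc1, Phlda3 and Ccng1 followed the mean of the other members most closely. Pearson's r of log2 CPM with the mean of the other 7 was 0.974 for Cdkn1a, 0.956 for Psrc1, 0.927 for Phlda3 and 0.917 for Ccng1. It was 0.729 for Btg2, 0.393 for Zmat3, 0.223 for Plk2 and 0.077 for Gadd45a. These values describe libraries that fall into groups by genotype. Outside the 8, the genes closest to the mean of all of them among 10718 genes compared were Ier5 (r of 0.979), Epha2 (0.954), Bbc3 (0.949), Sesn2 (0.942), Exoc4 (0.921) and Sulf2 (0.911). Ier5 is an immediate early response gene, Epha2 an ephrin receptor kinase, Sesn2 a stress-induced regulator of growth signalling, Exoc4 a part of the exocyst and Sulf2 a heparan sulfatase. Since they were picked for following the 8 genes in these same libraries, their differences are a description. Between CD150-negative Mysm1-null and wild-type cells Ier5 differed by 1.46 ± 0.16 and Epha2 by 3.81 ± 0.25 on the log2 scale, and in CD150-positive cells by 1.14 ± 0.20 and 2.56 ± 0.52.

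The highest Zmat3 levels often fell in libraries with many reads on receptor genes. A sum was taken over 1464 genes of olfactory, vomeronasal or trace amine receptors, which belong to sensory cells, and it ran from 608 to 8902 CPM. In 6 of the 8 groups the library with the highest Zmat3 was also the one with the highest receptor sum, against 0 to 3 of 8 groups for the other members. In CD150-positive cells these were B5 with 125 CPM of Zmat3, C2-5 with 45.6 and D2 with 43.6, and in CD150-negative cells C3 with 319, B1 with 259 and D4 with 117. D4 and D2 of that last group were level at 117 CPM. In both Mysm1-null groups another library than the one with the highest receptor sum held the highest Zmat3. With the receptor sum as a covariate the Mysm1 effect on Zmat3 in CD150-positive cells was 1.74 with an edgeR adjusted p of 4.05e-06. Without the libraries of high receptor sum it was 1.76 with an adjusted p of 8.19e-06. In CD150-negative cells Zmat3 was not called with the covariate (0.83, adjusted p 0.191).

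Immediate early genes were high in 4 libraries, and Plk2, Btg2 and Gadd45a were high in several of these. Fos, a transcription factor switched on within minutes of stimulation, was at 218 CPM in W1 and at 11.5, 61.1 and 123 CPM in P1, P2 and P3. In all other libraries it was at 4.54 CPM or less. The summed immediate early list was 361 to 1332 CPM in these 4 libraries and 102 to 266 CPM in the others. Wild-type W1 held the highest Btg2 (30.1 CPM), Plk2 (23.7 CPM) and Gadd45a (31.5 CPM) of its group. P2 and P3 held the highest double-null Btg2, at 56.1 and 51.7 CPM, and the highest Plk2, at 11.4 and 21.2 CPM. In P1, by contrast, Plk2 was the lowest of the group at 4.99 CPM, and Btg2, at 31.2 CPM, lay within the range of the B libraries. The 3 P libraries held the highest double-null Gadd45a, at 19.7 to 27.2 CPM against 11.7 to 18.4 CPM. Plk2 was also high where Fos was low, at 13.7 CPM in C1-4 and 11.5 CPM in C2-5. W and P carry a naming series of their own, whose meaning is not given. Without them the CD150-positive Mysm1 effect was 0.85 on Btg2 (edgeR adjusted p 0.244), 0.14 on Plk2 (0.887) and -0.12 on Gadd45a (0.865), and 5 of the 8 genes were still called higher. The part of the immediate early genes in these levels was not tested further.

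**Figure D4:**
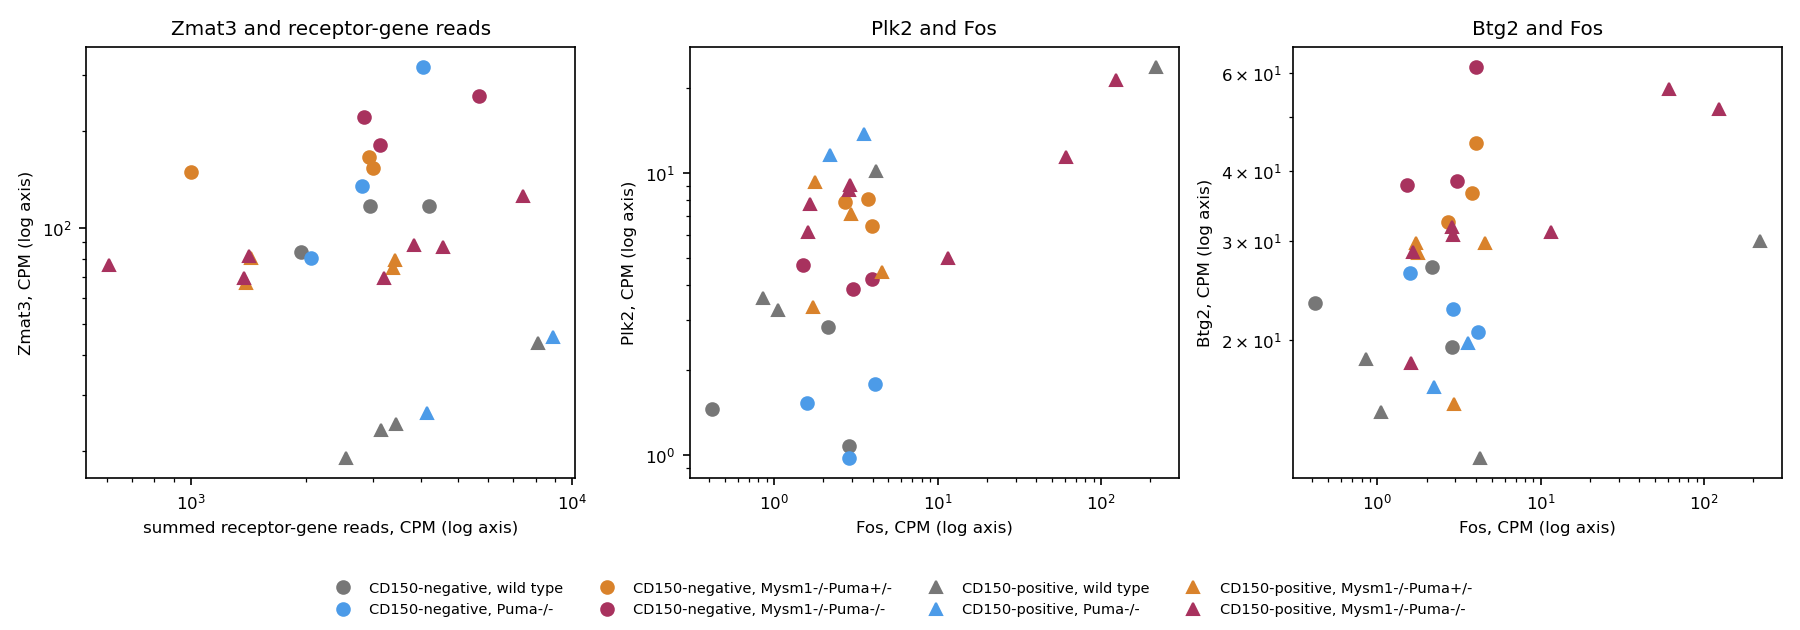
Zmat3 against the summed reads on receptor genes (left), and Plk2 (middle) and Btg2 (right) against Fos, all in CPM on log axes, with 1 point per library, circles for CD150-negative and triangles for CD150-positive cells. The 4 libraries with Fos at 11.5 CPM or more stand apart on the right of the Fos panels, and Zmat3 is highest in C3, at 319 CPM.

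Other p53 targets were tested in the same comparisons. Of 12 genes of the death branch, 6 were higher in CD150-negative Mysm1-null cells (Bbc3, Bax, Pmaip1, Trp53inp1, Aen and Eda2r) and 5 in CD150-positive ones (Bbc3, Bax, Apaf1, Trp53inp1 and Eda2r), and none were lower. Bbc3 was at a log2 fold change of 2.28 ± 0.28 in CD150-negative and 2.43 ± 0.23 in CD150-positive cells, with edgeR adjusted p-values of 0.000181 and 4.57e-06. The median of the list was 1.14 and 0.73. Of 8 genes for p53 and its feedback, only Mdm2 was called, in CD150-negative cells (0.79 ± 0.14, edgeR adjusted p 0.00569), and in CD150-positive cells it was at 0.63 ± 0.17 (0.141). Trp53, which encodes p53, was at -0.30 ± 0.15 and 0.08 ± 0.17, with edgeR adjusted p-values of 0.584 and 0.873. Of 12 repair and metabolic targets, 3 were higher in CD150-negative cells (Sesn2, Ercc5 and Polk) and 1 in CD150-positive cells (Sesn2). Of 6 other arrest genes linked to p53, Tob1 and Gtse1 were higher in CD150-negative cells and none in CD150-positive cells. Called genes other than Bbc3 and Mdm2 are named here because they passed the test.

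Relatives of the 8 genes were tested in the same way. Of 13 tested paralogues, which include Cdkn1b, Ccng2, Btg1, Plk4 and Gadd45b, 0 were called by edgeR between Mysm1-null and wild type in either population, with 3 and 4 at an unadjusted p under 0.05. Their median log2 fold change was -0.10 and 0.02. In CD150-negative double-null against Puma-null cells Plk4 (-0.97 ± 0.20, edgeR adjusted p 0.0182) and Plk1 (-0.89 ± 0.18, 0.0148), polo-like kinases of centriole duplication and mitosis, were lower. Of all genes, 0.935% were lower there. Plk1 is also in the list of mitosis genes described below. For the same comparison in CD150-positive cells 0 of 13 were called. Of the other inhibitors of cyclin-dependent kinases, 0 of 4 were called in CD150-negative and 0 of 5 in CD150-positive cells, with 0 and 1 at an unadjusted p under 0.05. Cdkn1b, which encodes p27, was at 0.45 ± 0.18 with an edgeR adjusted p of 0.407 in CD150-negative and 0.38 ± 0.18 with 0.56 in CD150-positive cells. Among 14 G1 cyclins and their partners Ccnd1, which encodes cyclin D1, was the only gene called between Mysm1-null and wild type. It was higher by 1.25 ± 0.14 and 1.41 ± 0.26 with edgeR adjusted p-values of 8.12e-05 and 0.00748. In CD150-negative double-null cells it was lower than in Mysm1-null cells (-0.71 ± 0.14, edgeR adjusted p 0.0234), and against Puma-null it was at 0.56 ± 0.14 (0.0629). E2f2 (-1.16 ± 0.20, 0.00452) and Ccne1 (-1.25 ± 0.26, 0.0189) were lower in that last comparison.

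Genes of mitosis were lower in CD150-negative double-null cells. In CD150-negative Mysm1-null cells, where Cdkn1a was 13.9-fold higher, 0 of 25 mitosis genes were called, with 3 at an unadjusted edgeR p under 0.05 and a median of -0.20 on the log2 scale. In double-null against Mysm1-null CD150-negative cells, where edgeR called none of the 8 arrest genes, DESeq2 1 and voom 2, edgeR called 15 of 25 mitosis genes lower, with a median of -0.74. Of all genes, 1.05% were lower in that comparison. Against Puma-null, 15 of 25 were lower in double-null cells too, with a median of -0.80, and 0.935% of all genes were lower. The summed mitosis list was 4677 to 5313 CPM in wild type, 4066 to 4715 in Puma-null, 3303 to 4436 in Mysm1-null and 2194 to 2826 CPM in double-null CD150-negative libraries. In CD150-positive Mysm1-null against wild-type cells 0 of 25 were called, and 24 had a positive log2 fold change, with a median of 0.26. In CD150-positive double-null against Puma-null cells 0 of 25 were called, with a median of -0.21. For the loss of Puma without Mysm1 in CD150-positive cells, 0 of 25 and 0% of all genes were called. There 21 of 25 had an unadjusted edgeR p under 0.05, and the share of all genes at that threshold is not given here. Their median was -0.59, where that of all genes was 0.01.

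**Figure D5:**
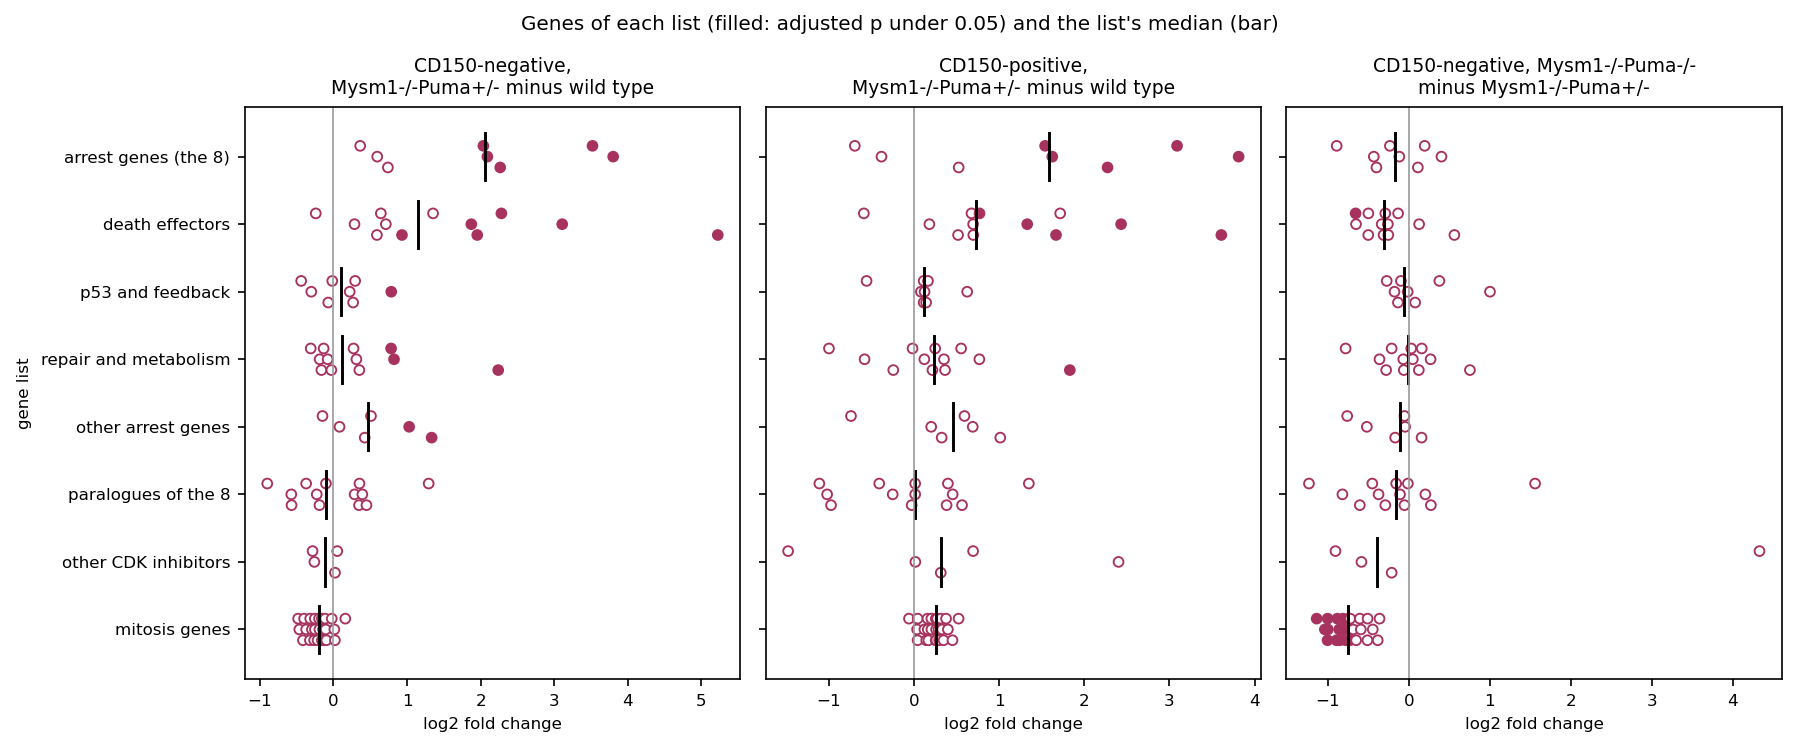
Log2 fold change of the tested genes of 8 lists (points, filled for an adjusted p under 0.05) and the median of each list (bars) in 3 comparisons. The 8 arrest genes have medians of 2.07, 1.58 and -0.17, and the mitosis genes -0.20, 0.26 and -0.74.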

How the data were processed

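RNA of 29 sorted libraries was sequenced as paired 50-base reads after ribosomal RNA depletion and a stranded low-input kit, per the labels' protocols. The deposited values of the authors are raw counts, 1 whole number per gene symbol and library. Reads were trimmed with Trimmomatic 0.33 and aligned to mm9 with TopHat2 2.0.9 and Bowtie 1.0.0, and counted with featureCounts, per the submitters' processing notes. How strand was set, the annotation and the handling of reads with several matches are not given in the sources used here. The authors also deposited a matrix of normalised CPM for 12578 genes, used only as an alternative on the log2(CPM + 1) scale.

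Levels are CPM scaled by TMM over all 29 libraries. Each population was fitted with its 4 groups, and comparisons of populations used all 29 libraries and 21830 genes. Genes were filtered with filterByExpr and tested with edgeR 4.0.16 in R 4.3.3 by the quasi-likelihood F test with Benjamini-Hochberg adjustment over all genes tested. Every adjusted p without another tool named is from it. Standard errors are approximate, the absolute log2 fold change over the root of its F statistic. Replicates of each group differed by more than sampling noise: over all pairs the lowest chi-square was 20.75 per degree of freedom. The fit was tested on simulated counts with changed genes of known size.

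The 8 genes, the lists and the tests were chosen with earlier results of these data known, and counts over lists are descriptions. Counts at an unadjusted p under 0.05 are given without the share of all genes at that threshold. Named genes were all 8 members in every comparison, the 2 most and 2 least abundant genes of a list where used, Bbc3, Mdm2, Trp53, Mysm1, Fos and Slamf1, and the 6 genes of most like pattern. Other genes were named after their values were seen. Whether numbers in library names pair libraries is not stated in the labels, and the main fits used no pairing. Deviations from group means of same-numbered libraries had r from -0.339 to 0.333 within and -0.079 to 0.42 between populations. Between populations r was over 0.1 in 4 of 7 same-name pairs, against 11 of 44 pairs of other names and the same genotype. These values do not settle whether libraries were paired. Alternatives were RLE factors, no filter, DESeq2 1.42.0, voom with quality weights and limma-trend in limma 3.58.1, the compared groups alone, a replicate block, the receptor sum as a covariate, and leaving out single libraries, the P and W libraries or libraries of high receptor sum (over 1.5 times their population's median). p53 matches were searched in GENCODE M1 transcripts, the first protein-coding transcript by name of each gene.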

Additional observations from a re-analysis of the deposited data

Results flagged for a closer look

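Of 24 checks for a library far from the rest of its group, in groups of 4 or more, 4 found a gap above Dixon's critical value. Chance alone gives about 1 in 20. Phlda3 was at 0.351 CPM in the CD150-positive wild-type library D3-4, the lowest of 4, and the other 3 lay between 2.39 and 2.44 CPM. Cdkn1a was lowest in the same library, at 0.395 CPM. Btg2 was at 15.3 CPM in CD150-positive Mysm1-null library A2, with the other 3 at 28.6 to 29.8 CPM. Plk2 was at 21.2 CPM in double-null library P3, the highest of 7, where Fos was at 123 CPM. Zmat3 was at 125 CPM in double-null library B5, the highest of 7, where the receptor sum was 7425 CPM.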

How the results depend on the processing

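Of 251 recomputed counts of called members, 231 were within 1.5 times the main count, and of 2008 recomputed fold changes of single members 31 lost a call, 29 gained one and 0 reversed a called direction. In double-null against Puma-null CD150-positive cells the count of 5 was 3 without libraries of high receptor sum and 2 to 5 with 1 library left out. For loss of Puma in CD150-negative Mysm1-null cells the count of 0 was 1 with DESeq2 and 2 with voom. Between populations in Mysm1-null cells the count of 1 was 3 with DESeq2, voom or limma-trend, 2 with the receptor covariate and 0 to 1 with 1 library left out. In double-null cells the count of 1 was 2 with DESeq2, limma-trend, the receptor covariate or without the P and W libraries, and 4 with voom. With the replicate block it was 2 in double-null and, in wild type, 0 in place of 2 (Plk2 log2 1.73, adjusted p 0.187, and Zmat3 -1.42, 0.066). The block also ended the call of Btg2 in double-null against Puma-null CD150-negative cells (log2 0.93, adjusted p 0.162), and same-numbered libraries had r over 0.1 in 7 of 17 pairs within populations. No paired fit was possible for comparisons with CD150-positive Puma-null, whose names hold several numbers each. For the difference of Mysm1 effects with the Puma background, a fit of the compared groups alone is the main fit and was not run again. For comparisons between the populations, and the difference of effects between them, that alternative was not run. The causes of these changes were not tested. Depth limits Cdkn1a and Phlda3 in wild type most, where the lowest libraries rest on 9 and 8 counts.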
